A study of Caenorhabditis elegans with 7 samples.

Results

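The genes described here are 10 members of the carboxylesterase family of Caenorhabditis elegans: cest-8, cest-9.1, cest-10, cest-12, cest-13, cest-15, cest-16, cest-17, cest-25 and cest-27. They were taken by gene name from the platform annotation, and make up 10 of the 32 cest genes, and of the 7534 genes in all, that have a named probe on the array. The list of members was chosen with earlier results of these data known. Total RNA came from adults of strain CF512, which carries temperature-sensitive mutations in the fertility genes fer-15 and fem-1. All animals, those of the 0 h baseline included, were raised to adulthood at 25 °C, where per the labels they are sterile, and the other 6 groups were then held at 30 °C for 2, 4, 6, 8, 10 or 12 h. Each of the 7 times is 1 two-colour array hybridised against the same reference RNA, named HS1, so no time has a replicate. No array is from animals kept at 25 °C for the same hours. Time at 30 °C therefore cannot be told apart from elapsed time and age. The sources used here give neither the number of animals per array nor the make-up of HS1.

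Carboxylesterases are hydrolases that cut ester and amide bonds in lipids and foreign compounds, with a serine in the active site. The same protein fold is shared by acetylcholinesterases and by neuroligins, which are adhesion proteins without the enzyme activity. In C. elegans the family is large, its best known member is the gut esterase ges-1, and several cest enzymes work in the reverse direction, joining building blocks to ascarosides, the small signalling molecules the worm secretes. cest-8 is one of these assembly enzymes. cest-9.1 carries the name of a paralogue of cest-9.2, another enzyme of ascaroside assembly. cest-15 is classed as a pseudogene in the WBcel235 gene table. No role is given here for the other 7.

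Each of the 10 genes was on 1 probe, had a value on all 7 arrays, and never reached the limits of -5 and 5 at which the deposited values stop. A value below is a log ratio against the reference after subtraction of the array's median. It is taken as base 2, which no source used here states, and it is no absolute level, so levels are not compared between genes. Which channel is the numerator is not stated either. The heat-inducible HSP70 genes F44E5.4 and F44E5.5 both stood at -4.98 at 0 h, and at 0.91 and 0.83 at 2 h. Their 0 h value is the limit of -5 after subtraction of the array's median, so it is a bound and no measured ratio. From their rise, worm RNA over reference is the likely direction. With the sign turned, every "lower" below becomes "higher". The 0 h array had a standard deviation of 0.634 over probes, against 0.497 to 0.585 on the heated arrays. No intestinal, muscle, germline or hypodermal marker of the lists used (13, 3, 2 and 2 genes, and the msp genes) was on a named probe, so tissue make-up could not be checked. In whole animals, fewer cells of a type and less RNA per cell cannot be told apart. The probe sequences were not used here, so signal from near-identical paralogues cannot be separated.

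As a group, the 10 genes stood high at 0 h and near or below the array median at each heated time. At 0 h, 9 of the 10 lay above 0, with a median of 0.56 and a range from -0.28 (cest-16) to 1.03 (cest-17). At 2 h the median was -0.09 and 8 of 10 were below their own 0 h value, as were 7346 of 15461 features. The lowest medians came at 10 h (-0.44) and 6 h (-0.41), and at 12 h it was -0.38 with 9 of 10 below 0 h. The shares of all features above 0 at 0 h, and below their own 0 h value at 12 h, were not counted. The median of all features measured on every array stayed between -0.01 and 0.03 throughout.

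**Figure D1:**
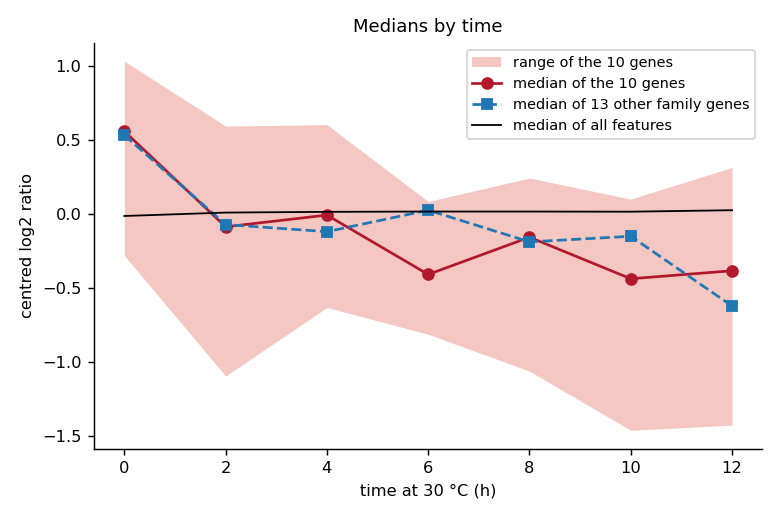
Median centred log2 ratio at each time for the 10 genes (red, with their full range shaded), for 13 other genes of the family (blue) and for all features (black). The median of the 10 genes goes from 0.56 at 0 h to -0.09 at 2 h and -0.38 at 12 h, with 1 array at each time.

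To set the timing apart, 2 steps were taken for each gene. The early step is the mean of the 2, 4 and 6 h arrays minus the 0 h array, and the late step is the mean of 8, 10 and 12 h minus the mean of 2, 4 and 6 h. A step of 0.5 log2 units or more was counted, as a size with no test. By this rule 3 genes were lower early with no late step of that size (cest-10, cest-15 and cest-27). Another 3 were lower early and lower again late (cest-8, cest-9.1 and cest-17), and 4 took neither step (cest-12, cest-13, cest-16 and cest-25). No gene had a late step alone, and none had a step upwards. Among all 13369 features measured on every array, 11.6% had the early step down alone, 3.26% both steps down, 5.16% the late step down without an early one down, 16.2% a step up without a step down, 1.5% an early step down with a late step up, and 62.2% no step.

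The borders between these sets are not firm. cest-8 lay just inside both limits, with steps of -0.56 and -0.65, while cest-25 lay outside both, with steps of -0.27 and -0.39. With a step size of 0.75, 1 gene (cest-9.1) kept both steps, and with a step size of 1 there were 5 genes with an early step and none with both. With the phases narrowed to 2 to 4 h and 10 to 12 h, cest-8 had a late step alone and cest-27 had both. The shares of all features were not counted for these other step sizes and phases, so these counts have no background.

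**Figure D2:**
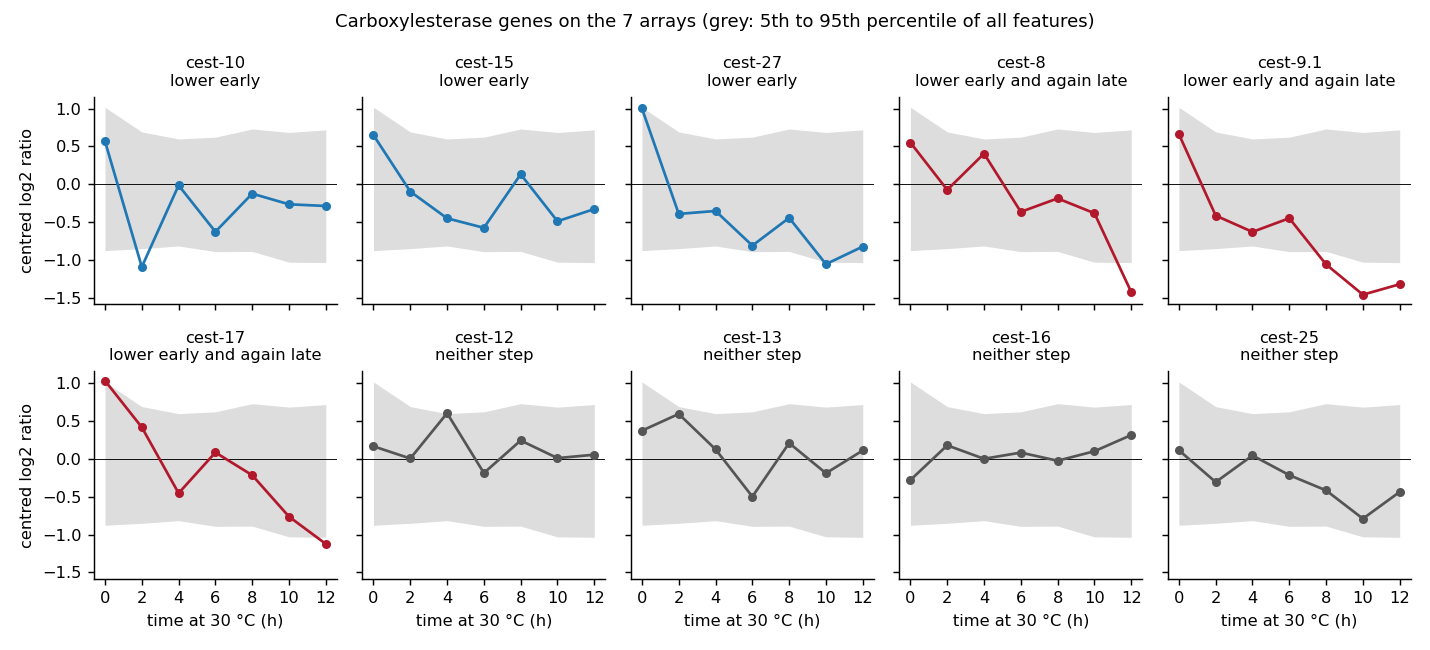
Centred log2 ratio of each gene against time at 30 °C in hours, 1 array per point, with the 5th to 95th percentile of all features shaded. cest-27 drops from 1.003 to -0.39 in the first interval and then varies less, cest-9.1 and cest-17 go on down to -1.32 and -1.12 at 12 h, and cest-12 and cest-16 stay within 0.8 log2 units throughout.

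The ascaroside assembly gene cest-8 read 0.55 at 0 h, -0.07 at 2 h, 0.41 at 4 h, -0.37 at 6 h, -0.19 at 8 h, -0.38 at 10 h and -1.43 at 12 h. Its 4 h value was close to the baseline, and the 12 h array alone held a value below -0.4. cest-8 fell by 1.53 log2 units over 0 to 12 h (SE 0.37, 7 arrays; limma adjusted p = 0.0486). This call was lost in 12 of 16 alternatives and in each of the 7 fits that left out 1 array. With the 12 h array left out its change was -0.99 (limma adjusted p = 0.216).

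cest-9.1, separated from cest-8 only by cest-9.2 in the WBcel235 gene order, read 0.66 at 0 h. It stood at -0.41, -0.63 and -0.45 at 2, 4 and 6 h, and at -1.06, -1.46 and -1.32 at 8, 10 and 12 h. The values thus formed 3 levels that did not overlap, with every late array below every early one. How many of all features show this order was not counted. cest-9.1 fell by 1.82 over 0 to 12 h (SE 0.34; limma adjusted p = 0.0208), and fell by 1.94 from 0 h to the 8 to 12 h arrays (SE 0.26; limma adjusted p = 0.00766). The second of these calls was kept in all 14 alternatives, with limma adjusted p from 0.0078 to 0.0268. The trend was not past the threshold without the 0 h array (-1.31, limma adjusted p = 0.12) or without the 10 h array (-1.70, 0.0642).

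The ratio of cest-8 to the reference was above that of cest-9.1 on each heated array except that of 12 h, which does not rank their levels. Their trends were not told apart: the difference over 12 h was 0.29 (exact permutation p = 0.662, two-sided, adjusted p = 0.767 over 45 pairs). Their neighbour cest-9.2 had no named probe. cest-7, on the other side of cest-9.1, had values on 4 arrays only, 0.95 at 0 h, 0.23 at 2 h, -1.63 at 6 h and 0.37 at 8 h.

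cest-17 had the highest 0 h ratio of the 10, at 1.03. It read 0.42 at 2 h, -0.45 at 4 h, 0.09 at 6 h, -0.22 at 8 h, -0.76 at 10 h and -1.12 at 12 h. The 12 h array was 2.16 log2 units below the 0 h array, about 4.46-fold, and 28.5% of that distance was present at 2 h. cest-17 fell by 1.84 over 0 to 12 h (SE 0.35; limma adjusted p = 0.021). It kept the call in 12 of 16 alternatives and lost it without the 0 h (-1.53, limma adjusted p = 0.131), 2 h (-1.87, 0.057), 10 h (-1.84, 0.0617) or 12 h array (-1.77, 0.0869). The difference between 8 to 12 h and 0 h was -1.73 (SE 0.42) and lay just short of the threshold (limma adjusted p = 0.0509).

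cest-27 showed the largest early step. It read 1.003 at 0 h, then -0.39, -0.35 and -0.81 at 2, 4 and 6 h, and -0.44, -1.06 and -0.82 at 8, 10 and 12 h. All 6 heated arrays lay more than 1.3 log2 units below the baseline, and 76.4% of the distance between 0 and 12 h was present at 2 h. cest-27 fell by 1.65 on the mean of the 6 heated arrays (SE 0.31; limma adjusted p = 0.0373) and fell by 1.78 from 0 h to the late arrays (SE 0.32; limma adjusted p = 0.0197). The early arrays alone gave -1.52 (SE 0.32; limma adjusted p = 0.0677), and the straight line gave -1.48 (SE 0.44; limma adjusted p = 0.0889). With time as log2 of hours plus 1 in place of hours, the trend of cest-27 passed (-1.79, limma adjusted p = 0.0128) while that of cest-8 did not (-1.41, 0.0916). The first call was kept in 8 of 14 alternatives (limma adjusted p up to 0.0887) and the second in 11 of 14 (up to 0.0598).

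The first call of cest-27 was lost without the 6 h (limma adjusted p = 0.0814), the 8 h (0.0618) or the 12 h array (0.0614). The second was lost without the 10 h (0.0506) or the 12 h array (0.0501). The changes themselves stayed between -1.75 and -1.34 for the heated mean and between -1.94 and -1.42 for the late arrays.

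cest-10 had its lowest value at the first heated time. It went from 0.57 at 0 h to -1.09 at 2 h, then stood at -0.01, -0.63, -0.12, -0.27 and -0.29 at 4, 6, 8, 10 and 12 h. The 2 h difference of -1.66 was the largest first step of the 10, and the later arrays lay between the 2 values. Neither the early step (-1.15, SE 0.38; limma adjusted p = 0.21) nor the straight line (-0.22, SE 0.51; limma adjusted p = 0.847) passed. Without the 0 h array the fitted slope of cest-10 turned upwards, to 0.65 over 12 h (limma adjusted p = 0.585).

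The pseudogene cest-15 read 0.65 at 0 h, -0.10 at 2 h, -0.45 at 4 h, -0.58 at 6 h, 0.13 at 8 h, -0.49 at 10 h and -0.33 at 12 h. Every heated array was below the baseline by 0.5 log2 units or more, with no ordered change among them. The heated mean was 0.95 lower (change -0.95, SE 0.29), which missed the threshold (limma adjusted p = 0.145), as did the early step of -1.02 (SE 0.32; limma adjusted p = 0.188).

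cest-25 read 0.12 at 0 h, -0.31, 0.05 and -0.21 at 2, 4 and 6 h, and -0.42, -0.79 and -0.44 at 8, 10 and 12 h. As with cest-9.1, every late array lay below every early one, but the sizes were smaller. The share of all features with this order was not counted, so it is a description only. The change from 0 h to the late arrays was -0.66 (SE 0.27; limma adjusted p = 0.2).

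In the remaining 3 genes the heated arrays lay on both sides of, or above, the baseline. cest-12 stood at 0.17 at 0 h, with a lowest heated value of -0.19 (6 h), a highest of 0.61 (4 h) and 4 of 6 below the baseline. cest-13 stood at 0.37 at 0 h and between -0.50 (6 h) and 0.60 (2 h), with 5 of 6 below it. cest-16 was the one member whose 0 h value, -0.28, was its lowest, and its heated values ran from -0.02 to 0.32. Their fitted changes over 0 to 12 h were -0.15 for cest-12, -0.49 for cest-13 and 0.34 for cest-16 (limma adjusted p = 0.826, 0.461 and 0.451). The 95% intervals were -0.84 to 0.54 for cest-12 and -0.21 to 0.89 for cest-16, so changes as large as those of cest-9.1 and cest-17 lay outside them.

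**Figure D3:**
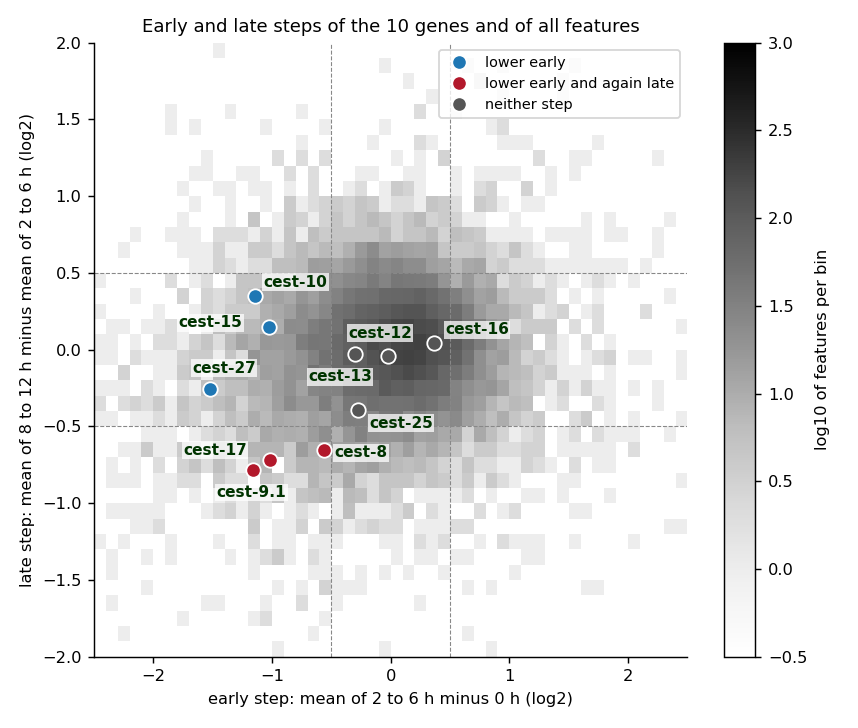
Early step (horizontal, log2) against late step (vertical, log2) for the 10 genes, over a grey map of how many of 13369 features fall in each bin, with dashed lines at 0.5 and -0.5. cest-27 (-1.52), cest-9.1 (-1.16) and cest-10 (-1.15) have the largest early steps, and cest-9.1 (-0.78), cest-17 (-0.72) and cest-8 (-0.65) the largest late steps.

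Each contrast was tested with limma across all features, and the members' counts are read beside the share of all features called. In the trend over 0 to 12 h, 3 of 10 fell (cest-8, cest-9.1 and cest-17) and 0 rose, where 3.63% of 13369 features were lower and 1.72% higher. The median change of the 10 was -0.67 against 0.04 for all features, and 9 of 10 changes were below 0 against 47.0% of features. As the 10 were chosen with earlier results of these data known, such comparisons with all features describe them and are no independent support. With the heated arrays as 1 group against 0 h, 1 of 10 was lower (cest-27) and 0 higher, against 0.957% and 0.681% of features. The median there was -0.92, against 0.05.

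From 0 h to 8 to 12 h, 2 of 10 were lower (cest-9.1 and cest-27) and 0 higher, where 4.02% of features were lower and 1.78% higher. The median of the 10 was -0.84, against 0.05. From 0 h to 2 to 6 h, 0 of 10 passed, where 0.666% of features were lower and 0.554% higher, and 5 of the 10 had an unadjusted p under 0.05, as had 1986 of the 13369 features. The median was -0.79, against 0.04. These contrasts share the single 0 h array, which is assumed to vary like the others, and whatever is particular to that array enters all of them.

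Change within the heating period, which does not use the 0 h array, gave no call among the 10. Over 2 to 12 h the fitted changes were -1.28 for cest-8 (SE 0.41), -1.28 for cest-17 (SE 0.35) and -1.09 for cest-9.1 (SE 0.29), with limma adjusted p = 0.184, 0.131 and 0.12. That of cest-27 was -0.56 (SE 0.29, limma adjusted p = 0.436) and that of cest-10 was 0.54 (SE 0.39, limma adjusted p = 0.585). Of 13478 features 0.779% were lower and 0.378% higher, and 3 of the 10 had an unadjusted p under 0.05, as had 1971 of the 13478 features. The median of the 10 was -0.43, against 0.02.

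The late arrays against the early ones gave 0 calls with limma, both among the 10 and among all 13369 features (0% in each direction), while 1466 features had an unadjusted p under 0.05. Of the 10, cest-9.1 (-0.78, 95% interval -1.20 to -0.36, unadjusted p = 0.00245 and limma adjusted p = 0.253) and cest-17 (-0.72, -1.40 to -0.04, unadjusted p = 0.0412 and limma adjusted p = 0.437) were among these. The second step of the genes lower early and late was therefore not past the threshold in any of them. cest-27 had a late step of -0.26 with an interval from -0.77 to 0.26, which takes in the late steps of cest-8 and cest-17.

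**Figure D4:**
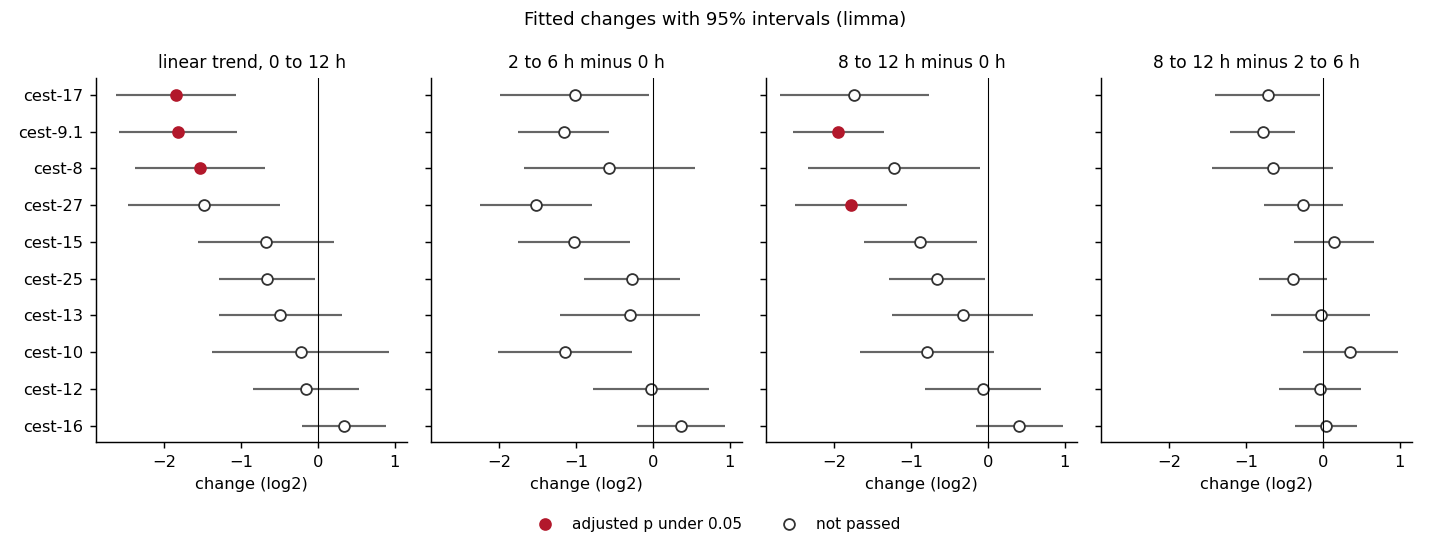
Fitted change (log2, points) with its 95% interval (lines) for each gene in 4 comparisons, filled red where the limma adjusted p over all features is under 0.05. In the trend 3 genes are filled, in 8 to 12 h minus 0 h 2 genes, and in the other panels none.

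Whether 2 genes differed in trend was tested on their difference within each array, which does not depend on how an array was centred. All 45 pairs were compared over all orders of the 7 arrays by an exact two-sided permutation test. Of these, 13 pairs had an unadjusted p under 0.05 and 0 passed after adjustment over the pairs, with a lowest adjusted p of 0.0714. That value belonged to cest-8 against cest-12 (-1.38 over 12 h, exact p = 0.00159) and to cest-9.1 against cest-16 (-2.16, exact p = 0.00317). Next came cest-17 against cest-16, where the trend of cest-16 over 12 h lay 2.19 above that of cest-17 (exact p = 0.00516, adjusted p = 0.0774).

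Without the 4 h array, 6 of the 45 pairs passed, each with an adjusted p of 0.0312 in the exact permutation test. cest-9.1 then differed from cest-16 (-2.23 over 12 h) and cest-25 (-1.28). cest-17 differed from cest-25 (-1.40), while the trends of cest-12 (1.97) and cest-16 (2.35) lay above that of cest-17. cest-12 also differed from cest-27 (1.499). Over 2 to 12 h alone 6 pairs had an unadjusted p under 0.05 and 0 passed (lowest adjusted p 0.125, exact permutation over 720 orders). With a smallest possible p of 0.00278 there, a single pair could not have passed after adjustment over 45, so this count of 0 says little. The contrast between the early step of cest-27 and the lower late values of cest-17 is a description of these arrays.

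Between 0 and 2 h there is 1 array at each end and no test. The difference was below 0 in 8 of 10 genes and in 7346 of 15461 features, with medians of -0.62 and 0.03. It was -0.5 or lower in 6 of the 10 (60%), where 18.7% of all features were as low. It was -1 or lower in 3 of the 10, cest-10 (-1.66), cest-27 (-1.40) and cest-9.1 (-1.08), against 6.88% of features. The 2 genes above 0 were cest-16 (0.46) and cest-13 (0.22), and no member was higher by 0.5 or more, against 14.8% of features.

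Of the 22 other cest genes on the array, 13 were measured on every array. Over 0 to 12 h 2 of the 13 fell and 0 rose, where 3.63% of all features were lower and 1.72% higher. The median change of the 13 was -1.04, against 0.04 for all features. From 0 h to the late arrays 3 fell and 0 rose, where 4.02% of features were lower and 1.78% higher, with medians of -1.03 and 0.05. These 3 were the pseudogene cest-29 (-4.41, SE 0.68; limma adjusted p = 0.0132), cest-1.2 (-3.09, SE 0.71; 0.0431) and cest-2.1 (-2.09, SE 0.425; 0.0298). At the other end of the trend, cest-3, an ascaroside assembly enzyme, stood at 0.62 (SE 0.29; limma adjusted p = 0.256) and cest-5.2 at 0.05. The lowest change among the 10 genes, -1.84 for cest-17, was smaller than the trends of cest-29 (-4.16) and cest-1.2 (-2.997). The difference between the 2 sets was not tested, and the calls of the 13 were not recomputed under the alternatives. ges-1, the acetylcholinesterase genes and the neuroligin gene nlg-1 had no named probe, nor had any cytochrome P450, glutathione transferase, lipase or vitellogenin gene of the lists used. Of the UDP-glucuronosyltransferases, 2 were on the array and 1 was measured on every array, with a change of -1.86 over 0 to 12 h that passed.

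The genes next to the members in the WBcel235 gene order did not all follow them. Beside cest-17, timp-1, for a tissue inhibitor of metalloproteinases, went from 0.73 at 0 h to between -0.52 (10 h) and 0.41 (2 h). Beside the level cest-12, lonp-2, for the peroxisomal Lon protease, stood at 1.32 at 0 h and between -1.59 (12 h) and -0.26 (4 h) afterwards. F56C11.5, next to cest-27, read -0.13 at 0 h, and its heated values ran from 0.02 to 0.39. These values are a description with no test.

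Among 5292 named genes outside the family with a value on every array, the 5 whose profile over the 7 arrays was most like the median of the 10 were R02F2.8 (Pearson r = 0.995), R05G6.10 (0.978), R09H10.3 (0.978), T19D7.6 (0.978) and lury-1 (0.9749). lury-1 encodes luqin-like RYamide neuropeptides and went from 1.02 at 0 h to -0.42 at 12 h. With 7 points that share their arrays, and with the 0 h array far from the rest, such values are a description of likeness only.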

How the data were processed

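The deposited table, 1 value per probe and array for 19200 probes, holds what is taken as log2 ratios of the 2 channels, from the range of the values. No source used here gives the scanner, the background correction, the authors' normalization or the reason for blank cells. Arrays held 16143 to 16972 values each, and 65 probes reached a limit of -5 or 5. Spot intensities were not used here, so signal over background is unknown. Precision is limited by having 7 arrays.

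Gene names came from the platform annotation (7900 probes with 1 gene, 0 with several, 11300 unnamed). Of these, 7872 were matched to the WBcel235 gene table, which was used for names and gene order only, since no source used here names the probes' build. Probes of 1 gene were averaged, unnamed probes were kept as features, and each array was centred on its median (deposited medians -0.018 to 0.056). Linear models were fitted with limma 3.58.1 in R 4.3.3 on features measured on every array used, with Benjamini-Hochberg adjustment over all features and a threshold of 0.05. They were a line over 0 to 12 h, heated against 0 h, a line over 2 to 12 h, and a model with 3 phases (0 h, 2 to 6 h, 8 to 12 h). Lines are given as the change over 12 or 10 h. Times within a phase stand in for replicates, so the spread behind a p-value includes any change within a phase or among the heated arrays. For the lines it includes any departure from a straight line. With 1 array per time, no p-value measures the variation between replicates at the same time. The fits were tested on simulated data.

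The members and lists were chosen with earlier results of these data known. The text names all 10 members, the family genes called and the 2 lowest and 2 highest of the other family genes, 5 genes most like the members' median, and the HSP70 pair. Neighbouring genes and cest-7 were named after their values were seen. Alternatives were other normalizations, missing values, single probes, a robust prior, log time, other step sizes and leaving out each array.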

Additional observations from a re-analysis of the deposited data

How the results depend on the processing

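The first counts are of the 10 genes that fell. The trend over 0 to 12 h gave 3, and leaving out each array gave 0 (without 0 h or 10 h) to 2. With log time it was again 3, with cest-27 in place of cest-8. Heated against 0 h, 1 became 0 with quantile normalization, equal median absolute deviations or up to 2 missing arrays allowed, and 0 to 1 without single arrays (0 without 6, 8 or 12 h). From 0 h to 8 to 12 h, 2 became 1 with quantile normalization and 1 to 3 without single arrays (1 without 10 or 12 h). The other contrasts gave 0 members in every alternative run. Pairs with different trends numbered 0 to 6 without single arrays (6 without 4 h). Genes with an early step alone went from 3 to 5 with a step size of 1. Those with both steps went from 3 to 1 and 0 with step sizes of 0.75 and 1, and those with a late step alone from 0 to 1 with phases of 2 to 4 h and 10 to 12 h. For these step counts the shares of all features were not recomputed.

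Over all features, quantile normalization gave 41 lower and 47 higher for heated against 0 h (128 and 91 in the main setting), 30 and 44 for the early contrast (89 and 74), 111 and 89 for the late one (537 and 238), 57 and 44 over 2 to 12 h (105 and 51) and 260 and 154 over 0 to 12 h (485 and 230). Equal median absolute deviations gave 60 and 44, 45 and 45, 230 and 94, 74 and 45, and 338 and 144 in the same order. Allowing 2 missing arrays gave 43 and 20 over 2 to 12 h and 393 and 151 over 0 to 12 h, where log time gave 707 and 394. Without single arrays the lower features numbered 64 (6 or 8 h) to 273 (2 h), 31 (4 h) to 89 (12 h), 237 (10 h) to 489 (6 h), 0 (2 h) to 59 (6 h) and 105 (0 h) to 426 (4 h), again in that order.

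Of 900 recomputed values of single genes, 24 changed sign, none of them past the threshold. cest-12 turned to 0.0138 without centring against 0 h, and in the early contrast to 0.0277 without centring, 0.0363 with quantile normalization, 0.0065 with equal median absolute deviations and 0.0105 with print-block centring. With print-block centring the late minus early difference turned to 0.0018 for cest-13 and -0.0022 for cest-16. Without single arrays, cest-10 ranged from -0.76 to 0.65 over 0 to 12 h and from -0.0915 to 0.8745 over 2 to 12 h. Over 2 to 12 h the ranges were -0.45 to 0.11 for cest-12, -0.74 to 0.14 for cest-13, -0.19 to 0.17 for cest-15 and -0.091 to 0.32 for cest-16. For cest-12 they were -0.14 to 0.0174 against 0 h and -0.26 to 0.14 early. Late minus early, they were -0.20 to 0.19 for cest-12, -0.32 to 0.23 for cest-13, -0.0345 to 0.28 for cest-15 and -0.0497 to 0.12 for cest-16. The median difference between 2 h and 0 h was -0.58 without centring and -0.47 with quantile normalization, against -0.62. The cause of these shifts was not tested, except that fewer arrays enter some fits. The 0 h array cannot be left out of contrasts against it. No paired analysis was possible because there is only 1 array per time.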
